A study of Mus musculus with 3 samples.

Results

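Epidermis of cFLIP KO mice was compared with that of cFLIP KO/TNF KO mice, which asks what is different in cFLIP-deficient skin when TNF is absent as well. All measured genes with a gene symbol were its members, which gave 24011 genes from 24973 values per array. Each side was 1 microarray of pooled epidermal RNA, taken 72 h after the first tamoxifen application to epilated back skin. cFLIP KO mice carried cFLIP fl/fl alleles and the K14CreERtam transgene. cFLIP KO/TNF KO mice carried the same alleles and transgene and were TNF-/- in addition. Cre and tamoxifen were therefore common to both sides, and the K14 promoter restricts the loss of cFLIP to keratinocytes, while TNF is missing from all cells of the double knockout. A TNF KO array (TNF-/-, with cFLIP intact) is given as a level beside each pair, and wild-type epidermis was not analysed here. The labels give 4 pooled animals and 3 days of tamoxifen, whereas the methods give 3 to 6 animals and 3 to 5 days. The age and sex of the animals are not given in the sources used here. Because each side is 1 array, nothing was tested, and the words "higher" and "lower" apply to this pair of arrays alone. The number of arrays limits the precision.

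cFLIP, encoded by Cflar, blocks caspase-8 in the complexes that form below death receptors such as TNF receptor 1. TNF has a pair of outcomes in keratinocytes, since the same receptor activates NF-kB and the transcription of cytokines, chemokines and survival genes on the one hand and can start apoptosis or necroptosis on the other. Dying keratinocytes release interleukin-1 and other alarmins, which call in myeloid cells that make more TNF. The outer epidermis is built by keratinocytes that leave the basal layer, switch keratins, and finally cross-link a cornified envelope of loricrin, filaggrin and late envelope proteins within a lipid matrix.

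The classical targets of TNF and NF-kB include the CXCR2 ligands, chemokines that attract neutrophils, and Nfkbia, which encodes the NF-kB inhibitor IkBα. Their promoters are shown because these genes of the same pathway, all with an identical form of the kappaB site near the start, had different values in the comparison. Each run gives 100 bases of the gene's own strand from RefSeq (GRCm38.p6), at chr5:90891129-90891228 (Cxcl1), chr5:90903757-90903856 (Cxcl2), chr5:90785983-90786082 (Cxcl3) and chr12:55492648-55492747 (Nfkbia, minus strand). Capitals mark GGGAATTTCC, the longest word that all 4 promoters hold in the 250 bases before the start on either strand, and in Nfkbia it stands on the opposite strand.
Cxcl1: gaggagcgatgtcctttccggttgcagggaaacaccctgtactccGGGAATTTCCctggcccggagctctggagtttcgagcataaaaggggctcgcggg
Cxcl2: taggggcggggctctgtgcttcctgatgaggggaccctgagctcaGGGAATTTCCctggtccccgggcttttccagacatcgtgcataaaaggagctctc
Cxcl3: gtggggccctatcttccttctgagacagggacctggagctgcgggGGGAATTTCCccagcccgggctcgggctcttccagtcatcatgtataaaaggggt
Nfkbia: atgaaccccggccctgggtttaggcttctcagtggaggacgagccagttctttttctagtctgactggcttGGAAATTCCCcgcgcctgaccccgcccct

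The word starts 71 bases before the transcription start in Cxcl1, 97 bases in Cxcl2 and 73 bases in Cxcl3. Searched on both strands over the 250 bases before the start, it was found in 28 of 32851 promoters (0.0852%). Of measured genes with a promoter in the table it was found in 21 of 18073, and of those at least 2-fold higher in cFLIP KO in 3 of 493, which were Krtap5-3 and, from the promoters the word was taken from, Cxcl2 and Cxcl3. None of the 1544 promoters of genes at least 2-fold lower held it. The AP-1 word TGANTCA was found in 7.44% of the promoters of measured genes, in 10.3% of those at least 2-fold higher and in 6.61% of those at least 2-fold lower. A match describes the letters only, and the words were chosen after the values were seen.

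Cxcl2 had a log2 value of 10.53 in cFLIP KO, 7.73 in cFLIP KO/TNF KO and 7.57 in TNF KO epidermis. For Cxcl3 the values were 8.75, 5.75 and 4.66. Cxcl1, in contrast, stood at 4.17, 4.12 and 4.12, and Nfkbia at 9.82, 9.46 and 9.14. Cxcl1 thus lay below 4.23, the median of all values, and so dim a probe set cannot show a lack of difference. The difference was 3.01 for Cxcl3 and 0.37 for Nfkbia. Values of different genes rest on different probes, so only the differences within a gene are compared.

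Across all genes, 798 (3.32%) were higher by at least 2-fold in cFLIP KO than in the double knockout, and 1937 (8.07%) were at least 2-fold lower. A difference of at least 2-fold is a log2 difference of 1 or more in size. The difference moved with the level, since its median went from 0.21 in the 5th to -0.68 in the 10th of 10 equal groups of genes ordered by their mean log2 value. Each count was therefore also made with a lowess trend along the level subtracted from the difference, which left 837 genes (3.49%) higher and 964 (4.01%) lower. Scaling by Actb gave 14.3% higher and 2.65% lower, scaling by 8 measured reference genes 9.15% and 3.82%, and a repeated quantile normalization 3.84% and 4.10%. The same 608 genes were higher, and the same 596 lower, as deposited and under all 4 of these scalings. Exactly equal values stood on both arrays for 5721 genes (23.8%), which does not show a lack of difference. The median of all genes was 0 as deposited, 0.56 under Actb and 0.38 under the reference genes, and -0.02 and -0.03 under the other 2 scalings, so a small difference has a direction only relative to that shift. The same holds for the medians and counts of gene lists under each scaling. In the 9th and 10th groups by level 27.1% and 29.4% of genes were lower as deposited, which stands beside the counts of lists of bright genes.

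**Figure D1:**
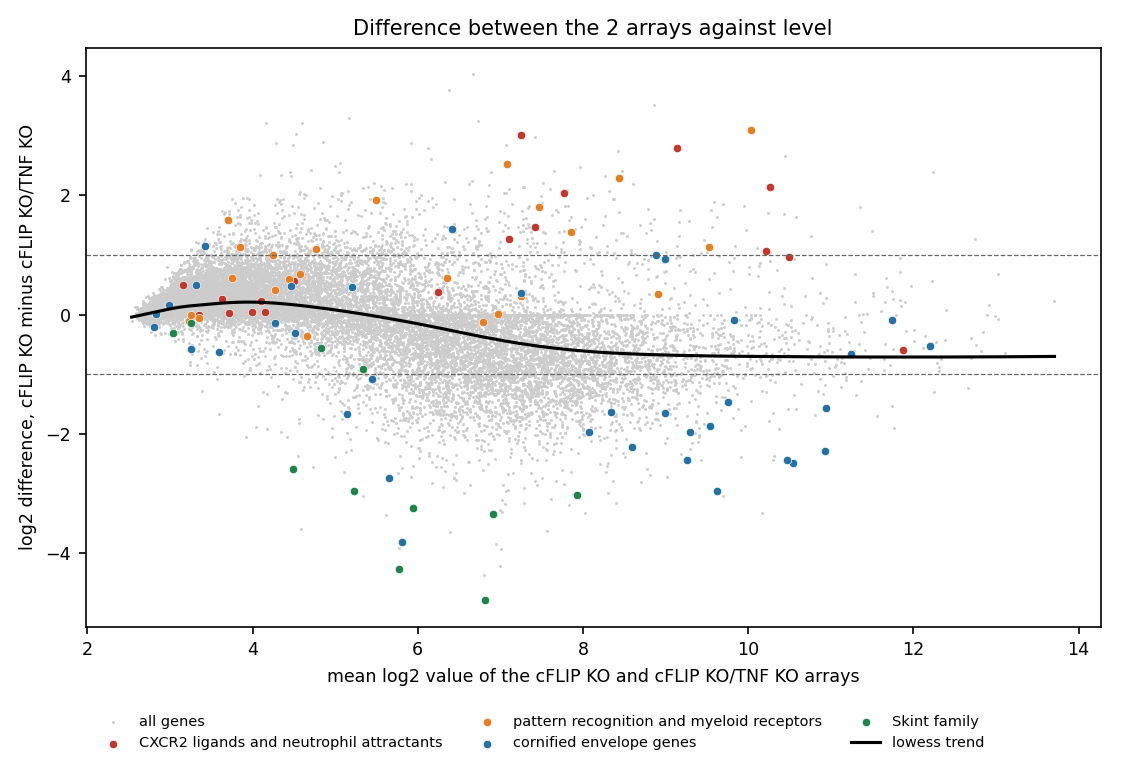
Log2 difference of cFLIP KO minus the double knockout cFLIP KO/TNF KO (vertical axis) against the mean log2 value of both arrays (horizontal axis), 1 point per gene, with 4 gene lists in colour, the lowess trend as a black line and 2-fold as dashed lines. The trend runs from 0.21 among dim genes to -0.71 among bright ones, and the Skint family lies farthest below it.

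**Figure D2:**
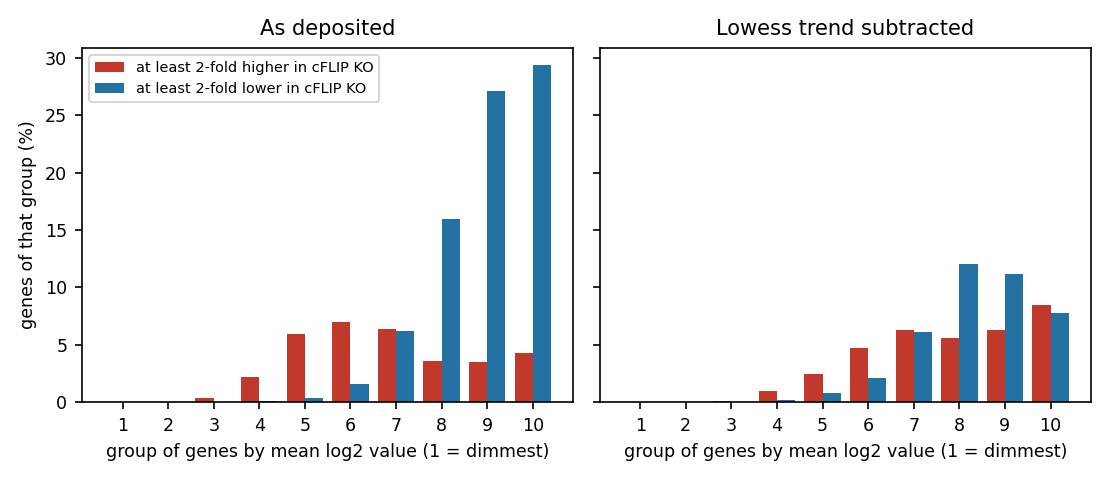
Share of genes (percent, vertical axis) at least 2-fold higher (red) and lower (blue) in cFLIP KO in each of 10 equal groups of genes by mean log2 value (horizontal axis), as deposited on the left and with the lowess trend subtracted on the right. In the brightest group, 29.4% were lower as deposited and 7.75% after the trend was subtracted.

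Protein-coding genes, 19638 of all 24011, made up different shares of the 2 sides. Of the higher genes 62.3% were protein-coding, with a median log2 value of 5.85 in cFLIP KO and 4.44 in the double knockout. Among the lower genes 98.3% were protein-coding, and their medians were 6.41 and 7.91. Long noncoding RNA and microRNA genes were dim, with median log2 values of 3.27 and 2.95. In the 3 dimmest of 10 equal groups of genes by level, 0% were at least 2-fold lower, and 0%, 0% and 0.333% were higher. The next 3 groups had 2.17%, 5.96% and 6.96% higher and 0.125%, 0.333% and 1.58% lower. Of the snoRNA genes, which were bright with a median of 8.21, 25 of 105 were higher. The part of level in the protein-coding shares was not tested. Differences of 4-fold or more were found for 72 higher and 214 lower genes, and of 8-fold or more for 10 and 28. In TNF KO epidermis the medians of all higher and all lower genes were 4.52 and 8.01, which lay nearer to cFLIP KO/TNF KO than to cFLIP KO. The cFLIP KO array also stood apart over all genes, with an SD of its log2 values of 1.77 against 2.04 and 2.06 and a median of 4.41 against 4.14 and 4.12 in cFLIP KO/TNF KO and TNF KO, and the part of this in the results was not tested.

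The labels were checked first. Cflar had a log2 value of 6.29 in cFLIP KO, 6.53 in cFLIP KO/TNF KO and 7.0 in TNF KO, so both cFLIP-deficient arrays lay below the one with cFLIP intact. Tnf stood at 5.79 in cFLIP KO and at 5.21 and 5.11 in the TNF-deficient genotypes. The sources used here do not say whether the probes lie in the deleted parts of either gene, so these values check the labels only weakly. The keratins of epidermis were present on both arrays, with log2 values of 12.98 and 13.00 for Krt14, 12.50 and 13.02 for Krt5, 12.78 and 13.43 for Krt10 and 12.04 and 13.27 for Krt1. Xist, the RNA of the inactive X chromosome of females, was at 4.62 in cFLIP KO, 8.98 in cFLIP KO/TNF KO and 8.58 in TNF KO. The Y-linked gene Eif2s3y was at 6.08, 5.14 and 6.73, while Kdm5d and Uty had equal values on the compared arrays. Kdm6a, an X-linked gene that escapes inactivation, was lower by 2.11 on the log2 scale in cFLIP KO. The part of these sex-linked differences in the other results was not tested.

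Neutrophil attractants were among the higher cytokine genes in cFLIP KO. Of 18 measured, 7 were at least 2-fold higher and 0 were lower by as much, and 8 to 10 were higher under the other scalings. The median difference of the list was 0.53, and 0.50 after the lowess trend. Besides Cxcl2 and Cxcl3, the highest were Ccl3 and Ccl4, chemokines that attract monocytes and other leukocytes, with differences of 2.14 and 2.04. Ccl3 had log2 values of 11.34 in cFLIP KO, 9.20 in cFLIP KO/TNF KO and 8.39 in TNF KO. Ccl4 ran in the same order with 8.79, 6.75 and 5.73, so the double knockout lay between the others for both genes. Lcn2, which encodes the iron-binding lipocalin-2, had values of 8.15, 6.69 and 5.37. Saa3, an acute-phase serum amyloid gene, was at 7.74, 6.48 and 6.42. The alarmin genes S100a8 and S100a9, made by neutrophils and by stressed keratinocytes, differed by 0.97 and 1.07 as deposited and by 1.68 and 1.77 after the lowess trend. The remaining members, among them Cxcl5, Ppbp, Csf3 and Il17a, lay within 0.60 of 0 and were dim except for Lgals3, which was at 11.58 and 12.17. Several members were chosen on these arrays by the study, so the direction of the list is not independent evidence.

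**Figure D3:**
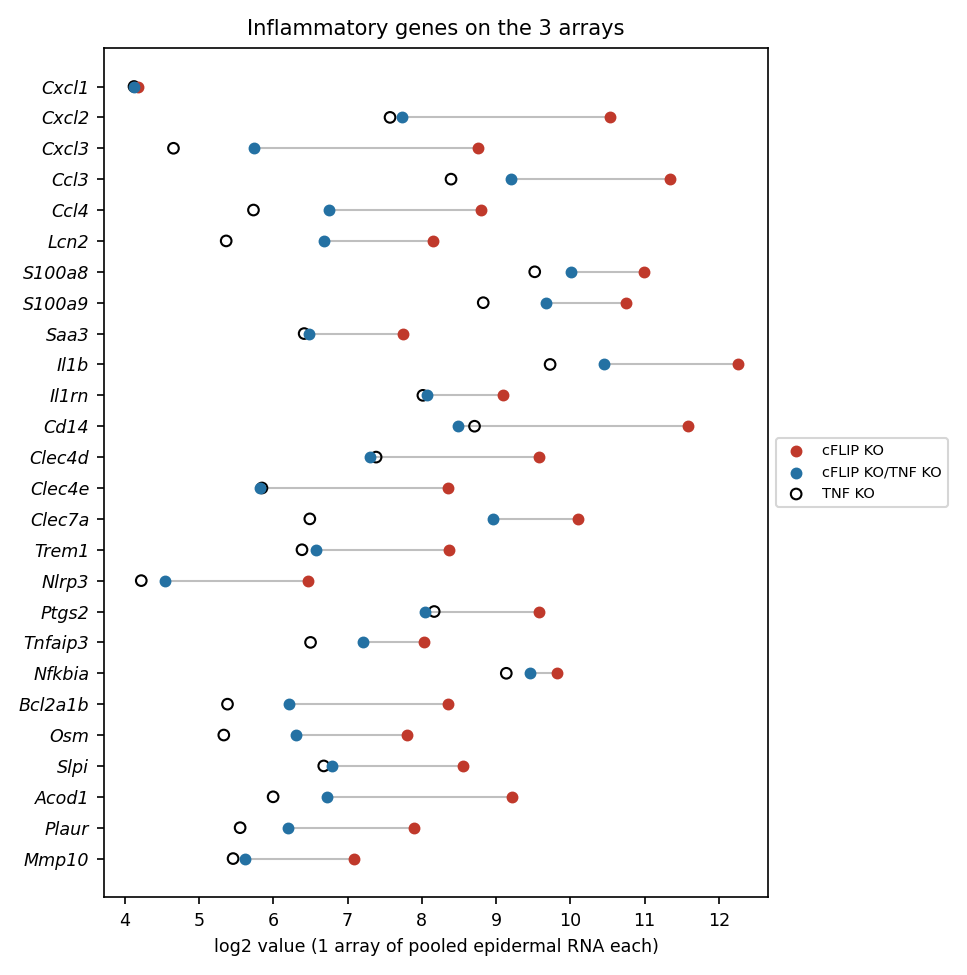
Log2 values of 26 inflammatory genes on the 3 arrays (horizontal axis, 1 array of pooled RNA each), with red points for cFLIP KO, blue points for cFLIP KO/TNF KO and open circles for TNF KO. For Cxcl2, Cd14, Clec4e and Clec4d the cFLIP KO/TNF KO value lies close to TNF KO, whereas Clec7a is at 10.10, 8.96 and 6.49 on the arrays of cFLIP KO, cFLIP KO/TNF KO and TNF KO.

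Receptors by which myeloid cells sense microbes and dying cells were higher in cFLIP KO as well, with 11 of 24 at least 2-fold higher and 0 lower. Between 9 and 15 were higher under the other scalings, and the median difference was 0.65 as deposited and 0.84 after the lowess trend. Cd14, the coreceptor for lipopolysaccharide, had log2 values of 11.58 in cFLIP KO, 8.49 in cFLIP KO/TNF KO and 8.71 in TNF KO, which is 8.56-fold higher in cFLIP KO. The neighbouring C-type lectin genes Clec4e (Mincle, a sensor of dead cells and mycobacterial glycolipid) and Clec4d ran alike, with 8.35, 5.82 and 5.85 for Clec4e and 9.58, 7.29 and 7.38 for Clec4d. In these 3 genes the double knockout was at the level of TNF KO. Nlrp3, the sensor of an inflammasome that matures interleukin-1β, was at 6.46, 4.54 and 4.22. Trem1, an amplifying receptor of neutrophils and monocytes, differed by 1.80 and its adaptor Tyrobp by 1.39. Of the Toll-like receptor genes, Tlr6 differed by 1.10, Tlr4 by 0.67 and Tlr2 by 0.62, while Tlr7 had equal values.

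Markers of the myeloid cells themselves were also measured. Of 18 neutrophil markers, those at least 2-fold higher numbered 2 (S100a9 and Csf3r, the receptor of G-CSF, with 1.01) and 1 was lower (Hp, with -1.57), and the median was 0.52. Under the other scalings 5 to 10 were higher and 1 lower, with medians from 0.53 to 1.08. The summed signal of the list had a log2 value of 12.36 in cFLIP KO, 11.67 in cFLIP KO/TNF KO and 10.95 in TNF KO. Ly6g, the defining neutrophil antigen, was listed at 2.79 on all 3 arrays, and Elane was at 3.42 and 3.40. Of 18 monocyte and macrophage markers, 1 was higher (Cx3cr1, with 1.33) and 2 were lower (C1qc, with -1.20, and Apoe, with -1.15), beside 3.32% and 8.07% of all genes. Their median was -0.17 as deposited and turned to between 0.02 and 0.39 under the other scalings. Under Actb and the reference genes it was 0.39 and 0.21, beside 0.56 and 0.38 for all genes. In RNA of a tissue, fewer cells of a type and less RNA per cell cannot be told apart.

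Genes of activated macrophages were split. Acod1, which makes itaconate, had log2 values of 9.21 in cFLIP KO and 6.73 in the double knockout, and the chitinase-like gene Chil3 had 6.54 and 4.85, with 3.32 in TNF KO. Arg1, arginase-1, was at 9.33, 8.36 and 6.74, a difference of 0.98 as deposited and 1.65 after the lowess trend. Lower in cFLIP KO were Mgl2, a lectin of alternatively activated macrophages and dermal dendritic cells, with 3.80, 6.19 and 4.00, and Gpnmb, with a difference of -1.74. In all, 4 of 17 members were at least 2-fold higher and 2 were lower. The Schlafen genes, several of which are expressed in myeloid cells and T cells, were split too, with 3 of 9 higher and 1 lower. Slfn4 was at 10.43 in cFLIP KO, 8.68 in cFLIP KO/TNF KO and 7.29 in TNF KO. Slfn9 went the other way with 4.53, 7.09 and 6.51.

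The interleukin-1 family divided by gene. Il1b had the higher value in cFLIP KO, with 12.26 against 10.46 in cFLIP KO/TNF KO and 9.73 in TNF KO. Il1rn, the gene of the interleukin-1 receptor antagonist, was also higher there, at 9.10, 8.06 and 8.01. Il1a, the alarmin that keratinocytes store, was at 8.78, 8.60 and 8.88, and Il33 was equal at 9.98. The cytokines of differentiated keratinocytes were far lower in cFLIP KO. Il18 had values of 6.07, 9.16 and 9.77, and the interleukin-36 genes, listed under older symbols, had differences of -2.05 (Il1f6), -3.27 (Il1f8) and -1.50 (Il1f9). Over the family, 2 of 15 were at least 2-fold higher and 6 were lower as deposited, and 3 and 3 after the lowess trend. The interleukin-1 receptor gene Il1r1 differed by -1.26 as deposited, and by -0.83 after the trend.

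Only a few of the textbook NF-kB targets passed 2-fold as deposited. Of 28 measured, 2 were higher and 1 was lower, with a median of 0.02. Under the other scalings 5 to 8 were higher and 0 lower. With Actb 8 were higher and with the reference genes 5, beside 14.3% and 9.15% of all genes. The list medians of 0.58 and 0.40 there were near those of all genes, 0.56 and 0.38. After the lowess trend and the repeated quantile normalization they were 0.40 and 0.52, beside -0.02 and -0.03 for all genes. Bcl2a1b, a survival gene of the Bcl-2 family, had log2 values of 8.35 in cFLIP KO, 6.21 in cFLIP KO/TNF KO and 5.38 in TNF KO. Ptgs2, the inducible cyclooxygenase, was at 9.57, 8.04 and 8.17. The feedback inhibitor gene Tnfaip3 (A20) differed by 0.83 as deposited and 1.38 after the lowess trend, and the immediate target Ier3 by 0.89 and 1.58. For Zfp36, which encodes an mRNA-destabilising protein, the values were 0.64 and 1.31, and for Nfkbia 0.37 and 1.06. In contrast, 9 members had equal values, among them Birc3, Icam1, Nfkbiz and Il6, and Rel was lower by 1.01 as deposited and by 0.49 after the trend.

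Among the ligands and receptors of the TNF superfamily, 0 of 19 were at least 2-fold higher and 1 was lower as deposited, with a median of 0.13. With Actb 5 were higher (median 0.69), with the reference genes 4 (median 0.51), and under the other 2 scalings 1, and 1 was lower under each. The lower gene as deposited was Tnfrsf19, a receptor without a death domain that is known from hair follicles, with 6.17 in cFLIP KO, 8.27 in cFLIP KO/TNF KO and 7.87 in TNF KO. Tnfrsf1a, the gene of TNF receptor 1, was at 8.46, 9.37 and 9.51, and Tnfrsf1b, the gene of TNF receptor 2, ran oppositely at 6.90, 6.19 and 5.03. Lta and Ltb, which lie beside Tnf, differed by 0.75 and 0.73. Fasl and Tnfsf10, the other death ligands, differed by 0.13 and 0.01, and both were dim. Of the cell death machinery, 0 of 17 members were higher and 2 were lower as deposited, beside 3.32% and 8.07% of all genes. Under each of the other scalings 1 was higher and 1 lower. The median was -0.25 as deposited and between -0.08 and 0.31 under the others. Casp8, the protease that cFLIP inhibits, had log2 values of 6.30, 7.94 and 7.99, so it was 1.64 lower in cFLIP KO on the log2 scale and 1.19 lower after the lowess trend. Rbck1, which encodes HOIL-1 of the linear ubiquitin ligase, was at 5.56, 6.72 and 6.72. Ripk3, Fadd, Tradd and Birc2 had equal values on all 3 arrays. Zbp1, a sensor upstream of RIPK3, was at 6.44, 7.03 and 4.83 and Mlkl at 5.67, 6.35 and 5.41, so both cFLIP-deficient genotypes lay above TNF KO.

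Genes of the interleukin-20 and interleukin-6 families differed in both directions. Osm, the gene of oncostatin M, was the only one of 21 measured that was at least 2-fold higher as deposited, with log2 values of 7.80, 6.31 and 5.33. Lower by at least 2-fold were 6 members. The shared receptor chain Il6st, together with Il6ra, Stat3, Il20ra, Il22ra1 and Il20rb, had differences from -1.27 (Stat3) to -3.16 (Il20rb). The oncostatin M receptor gene Osmr, at 7.66 in cFLIP KO and 8.66 in the double knockout, was just short of 2-fold lower. Il20rb, a receptor chain for the interleukin-20 subfamily on keratinocytes, was at 5.70 in cFLIP KO, 8.87 in cFLIP KO/TNF KO and 9.23 in TNF KO. After the lowess trend, Il20rb, Il20ra and Il6st were the members that stayed at least 2-fold lower, and 2 members were higher. Under Actb 4 were higher and 2 lower, and under the reference genes 1 and 5. The ligands Il24 and Il19 were at 9.09 and 8.48, and at 7.09 and 7.94, in cFLIP KO and cFLIP KO/TNF KO, which differed by less than 2-fold as deposited.

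Lists of chemokines for T cells and for monocytes and eosinophils had few members past 2-fold as deposited. Of 12 T cell attractants, 1 was at least 2-fold higher (Ccl28, with 1.03) and 1 lower (Cxcl16, with -1.01), and neither was after the lowess trend. Ccl17 was at 6.69 in cFLIP KO, 7.62 in cFLIP KO/TNF KO and 4.63 in TNF KO. Cxcl10 followed with 6.69, 7.05 and 4.96. The median of this list was -0.07 as deposited and between -0.05 and 0.50 under the other scalings. Of 13 monocyte and eosinophil attractants, 0 passed 2-fold in either direction as deposited, and 3 or 4 were higher and 0 lower under the other scalings. After the lowess trend these were Ccl24 (1.52), Ccl9 (1.41) and Ccl6 (1.21). Ccl2 was at 6.86 and 6.92 and Ccl7 at 8.25 and 8.31 on the compared arrays, so their differences were -0.06 and -0.07.

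Few markers of the resident immune cells of the epidermis passed 2-fold. Dendritic epidermal T cells carry a T cell receptor whose delta chain uses Trdv4, and this gene had log2 values of 4.97 in cFLIP KO, 6.57 in cFLIP KO/TNF KO and 6.77 in TNF KO. Cd3g ran alike with 5.48, 7.41 and 7.44. These were the 2 of 19 T cell markers that were at least 2-fold lower, under every scaling, while 0 were higher, beside 8.07% of all genes lower as deposited and 4.01% after the lowess trend, and Cd3d, Cd8a, Cd2 and Ccr4 were dim and equal. The summed signal of the list was 9.67, 10.28 and 10.25 on the log2 scale. H60c, which encodes a ligand of the receptor NKG2D on these T cells, was at 5.37, 8.67 and 9.41. Of 15 Langerhans and dendritic cell markers 3 were lower as deposited (H2-Aa, Epcam and H2-Ab1) and 1, H2-Aa, after the lowess trend. Cd207, which encodes langerin and defines Langerhans cells, was at 6.56, 7.44 and 7.22, a difference of -0.88 as deposited and -0.45 after the trend. Of 14 B cell, NK cell and mast cell markers and of 9 melanocyte markers, 0 passed 2-fold in either direction as deposited.

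The Skint genes formed the group farthest from 0. They encode butyrophilin-like membrane proteins of thymic epithelium and keratinocytes, and Skint1 is required in the thymus for the development of dendritic epidermal T cells. Of 11 measured, 7 were lower by at least 2-fold, as deposited and under each of the 4 scalings, and the median difference was -2.96 (-2.76 after the lowess trend). Skint9 had log2 values of 4.42 in cFLIP KO, 9.21 in cFLIP KO/TNF KO and 8.80 in TNF KO, which is 27.6-fold lower in cFLIP KO than in the double knockout and the lowest value of all named genes. Skint11 was at 3.65, 7.91 and 8.12. Skint1 was at 5.24, 8.58 and 8.39, and Skint3 at 6.42, 9.44 and 9.36. In each of these 4 genes cFLIP KO/TNF KO and TNF KO lay within 0.41 of each other, and cFLIP KO stood apart. Skint4, Skint6 and Skint10 differed by -2.96, -2.59 and -3.24. The other 4, Skint2, Skint5, Skint7 and Skint8, lay between -0.91 and -0.14. Whether probes of such closely related genes share targets was not tested.

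**Figure D4:**
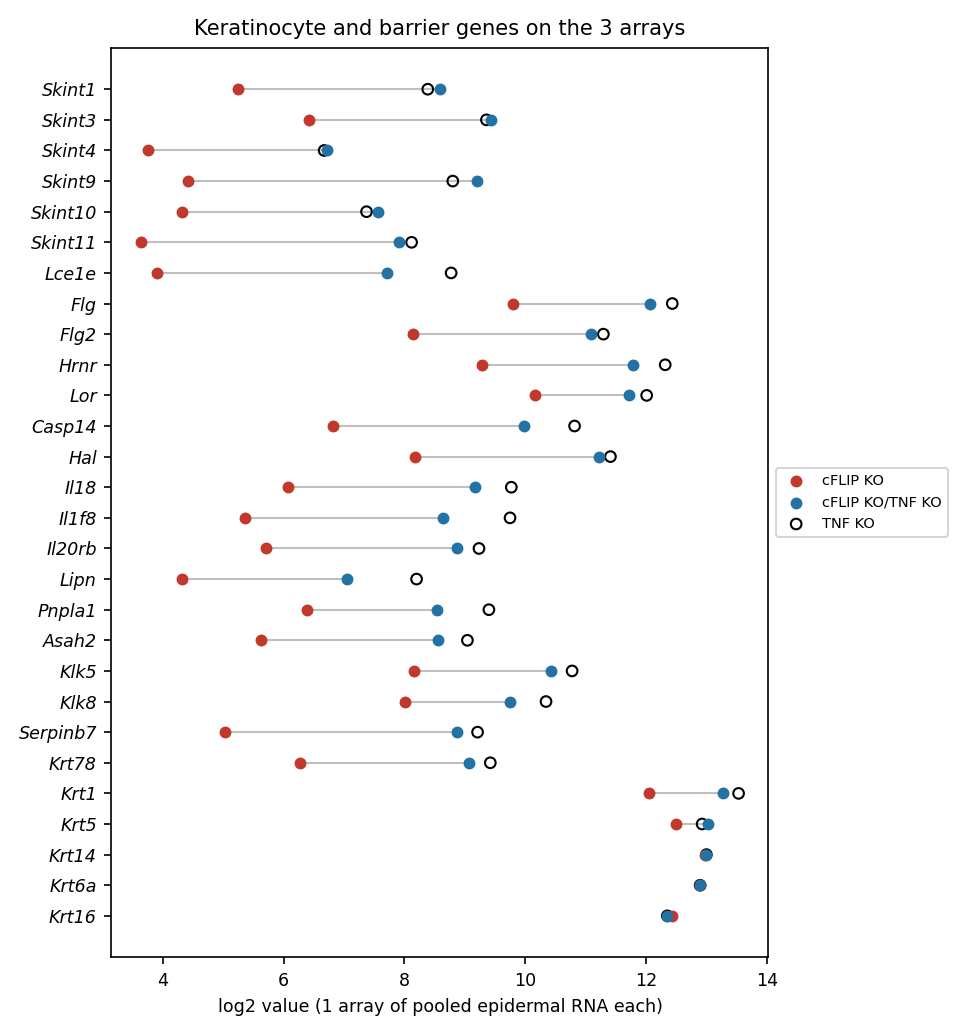
Log2 values of 28 keratinocyte and barrier genes on the 3 arrays (horizontal axis, 1 array of pooled RNA each), with red points for cFLIP KO, blue points for cFLIP KO/TNF KO and open circles for TNF KO. The Skint genes, Hal and Serpinb7 are far lower in cFLIP KO, while Krt14, Krt6a and Krt16 nearly coincide on the 3 arrays.

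Genes of the cornified envelope had more lower than higher members. Of 36 measured, 17 were at least 2-fold lower and 3 higher, with a median of -0.64, and 13 were lower and 3 higher after the lowess trend (median -0.75). Under Actb 14 were lower and 7 higher with a median of -0.08, and under the reference genes 16 and 4 with a median of -0.26. Flg, which encodes filaggrin, had log2 values of 9.79 in cFLIP KO, 12.07 in cFLIP KO/TNF KO and 12.43 in TNF KO. Its relatives Flg2 and Hrnr ran alike, at 8.15, 11.09 and 11.29 and at 9.29, 11.78 and 12.32. Lce1e was at 3.91, 7.71 and 8.77, the lowest difference of the list with -3.81. The late envelope genes split by subfamily. Of the Lce1 genes, Lce1c (-2.44), Lce1h (-2.74) and Lce1m (-2.22) were lower, whereas Lce3c and Lce3d, of the group linked to wounded and psoriatic skin, were higher in cFLIP KO than in the double knockout by 1.00 and 0.93, with 1.67 and 1.61 after the lowess trend. Lce3c, however, was at 9.38, 8.38 and 10.17, so both cFLIP-deficient arrays lay below TNF KO. The small proline-rich genes Sprr1b and Sprr2b differed by -0.10 and -0.08, and Sprr2h was higher by 1.43.

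The genes of this complex lie together on chromosome 3. Of 55 measured genes from S100a8 to Rptn, 20 (36.4%) were at least 2-fold lower and 6 (10.9%) higher as deposited, and 16 and 7 after the lowess trend. Of all 1122 measured genes of chromosome 3, 12.3% were lower and 2.32% higher. The interval was chosen after the values were seen.

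The enzymes that make the lipid barrier were lower as a group, with 18 of 26 at least 2-fold lower, 0 higher and a median of -1.55. After the lowess trend 12 were lower and the median was -0.87. Asah2, which encodes a neutral ceramidase, had log2 values of 5.63 in cFLIP KO, 8.56 in cFLIP KO/TNF KO and 9.04 in TNF KO. The epidermal lipases followed, with 4.31, 7.05 and 8.20 for Lipn, 4.67, 7.21 and 7.90 for Lipk and 7.33, 9.65 and 10.19 for Lipm. In all 4 genes cFLIP KO was lowest and cFLIP KO/TNF KO stood nearer to TNF KO. Pnpla1, which makes acylceramide, differed by -2.16, the sphingomyelinase gene Smpd1 by -2.07 and the serine palmitoyltransferase gene Sptlc3 by -2.11. The lipoxygenase genes Alox12b and Aloxe3 and the lipid transporter gene Abca12 differed by -1.69, -1.74 and -1.58. Abca12 and the elongase gene Elovl4 stood at -0.89 and -0.32 after the trend and so no longer passed 2-fold. Fa2h, Degs2 and Cers4 had equal values.

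Of the kallikrein proteases and other genes of desquamation, 10 of 16 were at least 2-fold lower and 0 higher as deposited, with a median of -1.37. After the lowess trend 4 were lower. These were Klk5 (8.16 in cFLIP KO, 10.42 in cFLIP KO/TNF KO and 10.78 in TNF KO), Klk9, Klk8 and Tmprss13. Klk7 and Cdsn, which encodes corneodesmosin, differed by -1.53 and -1.58 as deposited and by -0.82 and -0.87 after the trend. Klk10 was an exception with 8.56, 8.28 and 8.66.

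Inhibitors of these proteases were split. Serpinb7 had log2 values of 5.03 in cFLIP KO, 8.87 in cFLIP KO/TNF KO and 9.21 in TNF KO, a 14.3-fold lower level in cFLIP KO than in the double knockout. Serpinb3a (-2.36) and Wfdc5 (-2.01) were lower too, and Spink5, which encodes the kallikrein inhibitor LEKTI, differed by -1.21 as deposited and -0.50 after the lowess trend. Slpi, an elastase inhibitor of inflamed epithelium, was the 1 member that was higher, at 8.55, 6.79 and 6.68. Serpinb2 was equal at 11.34 on all arrays. Of the 19 measured, 6 were lower as deposited and 3 after the trend.

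Enzymes that break down filaggrin or cross-link the envelope had 9 of 17 members lower and 0 higher, with a median of -1.07, and 4 lower and -0.36 after the lowess trend. Casp14, the caspase that processes filaggrin, had log2 values of 6.82 in cFLIP KO, 9.98 in cFLIP KO/TNF KO and 10.82 in TNF KO. Hal, histidase, which turns histidine from filaggrin into urocanic acid, was at 8.18, 11.22 and 11.41. Both stayed at least 2-fold lower under every scaling, as did Nlrp10, with 6.82, 8.67 and 8.66. The transglutaminase genes differed among themselves, with Tgm5 at -1.58, Tgm1 at -0.53 and Tgm3 at 0.27. Over all caspases and gasdermins, 6 of 15 were lower and 0 higher, and besides Casp14 and Casp8 these were Gsdmc (-1.79), Gsdma (-1.65), Casp1 (-1.49) and Casp2 (-1.02).

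Genes of the living epidermal layers were measured as well. Suprabasal genes had 10 of 18 members lower and a median of -1.11, or 4 lower and -0.41 after the lowess trend. Krt78 was the lowest at 6.28 in cFLIP KO, 9.07 in cFLIP KO/TNF KO and 9.42 in TNF KO. Calml3, Krt77 and the desmoglein gene Dsg1a were at -2.30, -1.90 and -1.86. Krt1 and Krt10 differed by -1.23 and -0.64 as deposited and by -0.52 and 0.06 after the trend. Basal genes had 2 of 16 members lower under every scaling, which were Krt15 (-1.84), a keratin of quiescent basal and follicle bulge cells, and Ptn (-1.88). Their median of -0.33 as deposited turned to between 0.05 and 0.33 under the other scalings. Under Actb and the reference genes it was 0.23 and 0.05, below the medians of all genes, 0.56 and 0.38. Epidermal transcription factors had 7 of 19 lower as deposited and 1, Grhl1, after the lowess trend (-1.75 and -1.14). In the brightest of 10 equal groups of genes by level 29.4% were lower as deposited and 7.75% after the trend. Klf4 and Cebpa, regulators of terminal differentiation, differed by -1.27 and -1.22 as deposited and by -0.59 and -0.57 after it. Of the junction genes, 3 of 15 were lower as deposited, and Cldn1, the main claudin of the epidermal tight junction, was the 1 that stayed so after the trend, with 8.96, 10.69 and 10.65.

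**Figure D5:**
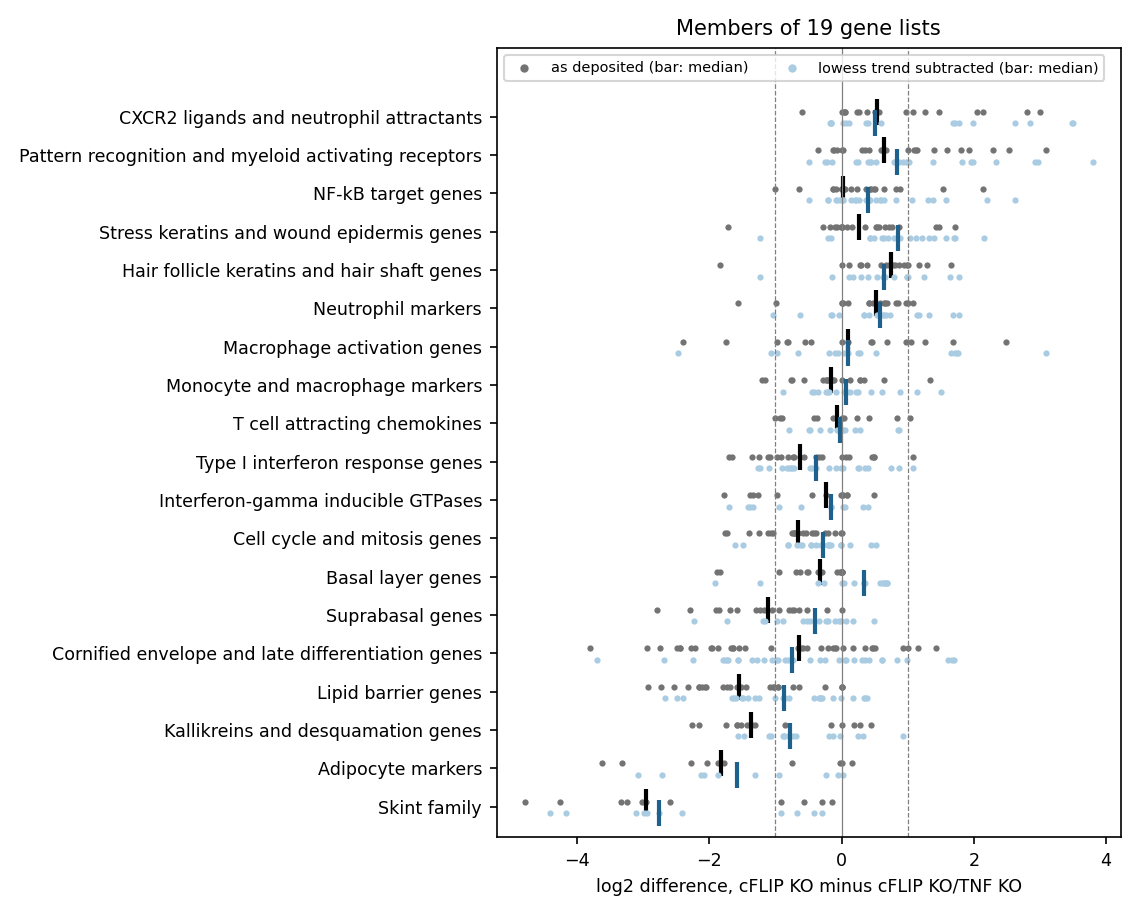
Log2 difference of cFLIP KO minus cFLIP KO/TNF KO (horizontal axis) for each measured member of 19 gene lists, as deposited in grey and with the lowess trend subtracted in light blue, with vertical bars for the medians and dashed lines at 2-fold. The medians run from -2.96 (Skint family) to 0.75 (hair follicle genes) as deposited, and the basal genes are among the lists whose median turns sign, from -0.33 to 0.33.

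Stress and wound genes had 3 of 22 members at least 2-fold higher and 1 lower as deposited, and 7 to 10 higher and 1 lower under the other scalings. Plaur, the urokinase receptor gene, had log2 values of 7.90 in cFLIP KO, 6.19 in cFLIP KO/TNF KO and 5.55 in TNF KO. Mmp10, a metalloproteinase of migrating keratinocytes, was at 7.08, 5.62 and 5.46. The third was Sprr2h, and the lower member was the growth factor gene Ereg, with 6.40, 8.12 and 9.62. The wound keratin genes did not differ as deposited beyond 0.28 in size, with 0.00 for Krt6a, -0.07 for Krt6b, 0.08 for Krt16 and -0.28 for Krt17, and stood at 0.43 to 0.79 after the lowess trend. Immediate early genes had 0 of 19 members higher and 1 lower (Egr3, with -1.35) as deposited. After the trend 4 were higher, which were Dusp5 (1.45), Atf3 (1.29), Dusp1 (1.28) and Junb (1.13).

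Cellular stress pathways had few members past 2-fold as deposited. In the unfolded protein and integrated stress response, 0 of 18 were higher and 3 were lower as deposited, led by Dnajb9, an ER chaperone gene, with a difference of -1.61. This balance turned under the other scalings, with 2 to 4 higher and 1 lower, and the median went from -0.34 as deposited to between 0.03 and 0.32. It was 0.22 under Actb and 0.03 under the reference genes, where all genes had medians of 0.56 and 0.38. Chac1 and Ppp1r15a, targets of the ATF4 arm, differed by 0.88 and 0.91 as deposited and by 1.16 and 1.03 after the lowess trend. Of 14 NRF2 and metallothionein genes 1 was higher (Osgin1, with 1.25), and Gsta4 differed by 0.90 as deposited and 1.61 after the trend. Of 14 p53 targets 1 was lower (Trp53inp1, with -1.60), and Cdkn1a differed by -0.17.

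Genes of proliferation were lower in part, as were many genes of similar level. Of 23 cell cycle genes 7 were at least 2-fold lower and 0 higher, with a median of -0.66, and 2 were lower with a median of -0.29 after the lowess trend. The 2 cell cycle genes lower after the trend were Nusap1 (5.51 in cFLIP KO, 7.26 in cFLIP KO/TNF KO and 7.25 in TNF KO) and Kif11 (5.03, 6.76 and 6.92), both of the mitotic spindle. Mki67 and Top2a differed by -1.25 and -1.40 as deposited and by -0.61 and -0.82 after the trend. Cks2, which encodes a subunit of cyclin-dependent kinase complexes, was among the 20 highest genes, at 6.64, 4.48 and 4.48. Housekeeping lists moved with the scaling in different ways. Proteasome subunits had a median of -0.60 as deposited and 0.02 after the trend, and respiratory chain subunits -0.22 and 0.07, with 1 member of each at least 2-fold lower as deposited and 0 after it. Ribosomal protein genes went from a median of 0.12 with 1 of 17 higher to 0.28 with 4 higher.

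A minority of the interferon-stimulated genes passed 2-fold, and their balance depended on the scaling. Of 23 genes of the type I response, 6 were at least 2-fold lower and 1 higher (Ifit3, with 1.09), with a median of -0.63, beside 8.07% lower and 3.32% higher over all genes. Under the other scalings 2 or 3 were lower and 1 to 4 higher, and with Actb 4 were higher and 2 lower, with a median of -0.07. Ifih1, the RNA sensor MDA5, had log2 values of 7.13 in cFLIP KO, 8.83 in cFLIP KO/TNF KO and 6.96 in TNF KO. Usp18, a feedback regulator, was at 6.16, 7.82 and 5.33, and Ifit1 at 7.26, 8.62 and 5.51. In these 3 genes cFLIP KO/TNF KO was the highest of the arrays. The interferon-gamma inducible GTPases had 4 of 13 lower and 0 higher, namely Irgm1 (4.81, 6.59 and 4.34), Gbp7, Igtp and Irgm2, and 4 lower after the lowess trend but 1 under scaling by Actb. Their median of -0.24 as deposited turned to 0.32 under Actb and 0.14 under the reference genes, below the medians of all genes there, 0.56 and 0.38.

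Genes of the MHC, chosen as a family after the values were seen, had 9 of 39 members lower and 0 higher as deposited, and 5 lower and 1 higher after the lowess trend. H2-Q7, a non-classical class I gene, had log2 values of 3.82 in cFLIP KO, 7.73 in cFLIP KO/TNF KO and 6.57 in TNF KO. H2-DMb2, of peptide loading on class II, was at 5.06, 7.80 and 7.30, and H2-Aa at 8.24, 9.97 and 9.15. Several of them lie on chromosome 17 near Tnf, where the region around a targeted gene can keep the sequence of the strain it was made in. Of the 120 measured genes nearest to Tnf, 13 (10.8%) were at least 2-fold lower and 4 (3.33%) higher as deposited, and 5 and 9 after the lowess trend. The shares over all genes were near these as deposited, with 8.07% lower and 3.32% higher, and were 4.01% and 3.49% after the trend. The strain background of this region was not tested.

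Fat cell markers stood out among the other cell types of skin. Of 10 measured adipocyte markers, 6 were lower by at least 2-fold under every scaling and 0 higher, with a median of -1.82 as deposited and -1.59 after the lowess trend. Fabp4, a fatty acid carrier of fat cells and some macrophages, had log2 values of 5.75 in cFLIP KO, 9.37 in cFLIP KO/TNF KO and 7.53 in TNF KO. Car3 was at 6.36, 9.68 and 7.73. Adipoq, which encodes the fat cell hormone adiponectin, was at 3.10, 4.98 and 3.12, so the cFLIP KO/TNF KO array stood above both others. The summed signal of the list was 8.55, 11.08 and 9.33 on the log2 scale, while Plin1 and Plin4, other defining genes, differed by 0.16 and 0.00. The arrays are of separated epidermis, and the part of fat tissue in other differences was not tested.

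Fibroblast markers had 4 of 14 members lower as deposited, led by Postn with 9.13 in cFLIP KO, 11.50 in cFLIP KO/TNF KO and 10.74 in TNF KO, and the collagen genes Col1a1 and Col1a2 differed by 0.36 and 0.00. That count is near the share in the brightest of 10 equal groups of genes, where 29.4% were lower as deposited, beside 8.07% of all genes. The median of the fibroblast list was -0.14 as deposited and turned to between 0.24 and 0.47 under the other scalings. Under Actb and the reference genes it was 0.42 and 0.24, where all genes had medians of 0.56 and 0.38. Of 12 endothelial markers 1 was higher (Egfl7, with 1.16). Sebaceous gland genes had 3 of 12 lower as deposited and 0 after the lowess trend.

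Hair genes had more higher than lower members. Of 18 measured, 4 were at least 2-fold higher and 1 lower, with a median of 0.75 as deposited and 0.64 after the lowess trend, and 4 to 12 were higher and 1 lower under the other scalings. Tchh, trichohyalin, had log2 values of 6.69 in cFLIP KO, 5.03 in cFLIP KO/TNF KO and 8.73 in TNF KO. Krt71 was at 5.95, 4.97 and 9.25, and Krt27 at 6.06, 5.11 and 7.73, both just short of 2-fold in the comparison. In these 3 genes of the inner root sheath TNF KO was the highest array. Krt83, a hair shaft keratin, was at 7.33, 6.03 and 6.30. Of 53 keratin-associated protein genes of the hair shaft, a family chosen after the values were seen, 9 (17%) were at least 2-fold higher and 0 lower. Over all genes 3.32% were higher. The family was dim, with a median log2 value of 3.21. Among all genes of about that level 0.333% were at least 2-fold higher and 0% lower, so the lack of lower members says nothing about this family.

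Of the 20 highest and 20 lowest protein-coding genes, all stayed at least 2-fold different under the 4 scalings, and 8 and 10 of them were in a gene list. The highest outside the lists included genes that are not known from epidermis. Pramel11 had log2 values of 5.76 in cFLIP KO, 2.56 in cFLIP KO/TNF KO and 3.78 in TNF KO, Speer4c had 8.91, 5.92 and 5.80, and Duxf3 had 6.30, 3.41 and 3.60. Such genes belong to multicopy families that are mostly studied in germ cells and early embryos. Esp6, a gene of the exocrine gland peptide family, and the bitter taste receptor gene Tas2r130 differed by 2.88 and 2.33. The lowest outside the lists were metabolic and epithelial genes. Bbox1, the last enzyme of carnitine synthesis, was at 4.89, 9.10 and 8.68, and Micu2, a regulator of mitochondrial calcium uptake, at 4.56, 8.20 and 7.93. Anxa9, an annexin gene of differentiated epidermis, was at 5.04, 8.97 and 9.15, and the zinc transporter gene Slc39a8 at 5.47, 8.64 and 9.10. Eola1 and Ubl4a, both on the X chromosome, differed by -3.59 and -3.35. Of 963 measured X chromosome genes 6.85% were at least 2-fold lower and 3.84% higher, beside 8.07% and 3.32% of all genes.

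Small RNA genes had more higher than lower members. Among families chosen after the values were seen, 68 of 535 microRNA genes (12.7%) were higher by at least 2-fold and 0 lower, and 25 of 105 snoRNA genes (23.8%) were higher, with 1 lower. Over all genes 3.32% were higher and 8.07% lower. With the lowess trend subtracted these counts were 75 and 2 for microRNA genes and 44 and 0 for snoRNA genes. Of 1091 olfactory receptor genes 51 (4.67%) were higher and 0 lower as deposited, and 36 were higher after the lowess trend, where 3.49% of all genes were. Of 279 vomeronasal receptor genes 21 (7.53%) were higher and 0 lower, and 17 were higher after the trend. The median log2 values of these receptor families were 2.83 and 2.77, at the dim end of the arrays. In the 3 dimmest of 10 equal groups 0%, 0% and 0.333% of genes were at least 2-fold higher, less than in these families. A gene raised on 1 array has a raised mean level, so these shares are not matched to the families. In the same groups 0% were at least 2-fold lower, so the lack of lower members says nothing about the families. The same limit holds for the microRNA genes, with a median of 2.95, whereas the snoRNA genes had a median of 8.21.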

How the data were processed

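RNA of each genotype was hybridised by the authors to 1 Affymetrix Mouse Gene ST array, 3 in all. Probes were grouped by ENTREZ gene (custom CDF, version 22), followed by RMA background correction and quantile normalization. The deposited values are log2 values. The log base is not named, and the values run from 2.48 to 13.82 as log2 values do. Groups follow the genotype label, from which the double knockout's title departs.

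Symbols came from the platform annotation. Of 24973 values per array 958 had none and were left out, and 4 symbols with several probe sets were averaged. The study's analysis of variance needs replicates and was left out. Per gene, the log2 value of cFLIP KO/TNF KO was subtracted from that of cFLIP KO, and differences of at least 2-fold were counted. Arrays have no read depth.

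Alternatives were a lowess trend (share 0.3 or 0.6 of genes, 3 iterations), scaling by Actb or by 8 of 10 listed reference genes, repeated quantile normalization, thresholds of 1.5-fold and 3-fold, and leaving out dim genes, equal values or genes that are not protein-coding. The steps were tested on simulated data. Tools were Python 3.11.15 with statsmodels 0.14.6, pandas 2.3.3 and numpy 2.4.6.

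Promoter words were searched with letters chosen after the values were seen. The genes, the 49 lists and the rules were chosen with earlier results of these data known. Named were the 20 highest and 20 lowest protein-coding genes (without predicted genes and olfactory or vomeronasal receptors, and with a log2 value at or above the median of 4.23 on at least 1 of the 2 arrays), the 4 members furthest from 0 in each list, the genes the paper names, and any member of 6 lists. All other genes in the text were picked after their values were seen.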

Additional observations from a re-analysis of the deposited data

How the results depend on the processing

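The number of higher genes, 798 as deposited, was 3423 under Actb, 2196 under the reference genes, 2419 at 1.5-fold, 197 at 3-fold and 427 once noncoding genes and chemosensory receptor genes were left out. The number of lower genes, 1937 as deposited, was 964 after the lowess trend (979 with a share of 0.6), 637 under Actb, 917 under the reference genes, 985 after a repeated quantile normalization, 3669 at 1.5-fold and 605 at 3-fold. The share of higher genes among those at least 2-fold different, 29.2% as deposited, was 46.5% after the lowess trend (48.0% with a share of 0.6), 84.3% under Actb, 70.5% under the reference genes, 48.4% after a repeated quantile normalization, 39.7% at 1.5-fold, 24.6% at 3-fold and 18.3% without those noncoding and receptor genes. Leaving out dim genes gave 759 higher and 1935 lower genes. Leaving out equal values gave 798 and 1937, which could not change because equal values are never counted. With a lowess share of 0.6, the differences of Elovl4 (0.060), Krt1 (0.12) and Pkp1 (0.064) and the median of the suprabasal list (0.025) turned above 0. Of 240 listed or named genes at least 2-fold different as deposited, 160 stayed so after the lowess trend, 167 under Actb, 185 under the reference genes and 170 after a repeated quantile normalization. Under these 4 scalings 0 turned sign, which the first 3 could not have shown otherwise. The trend ran from -0.71 to 0.21, and scaling by Actb and by the reference genes added 0.56 and 0.38. The median of 10 of 49 lists turned sign after the lowess trend, 16 under Actb, 14 under the reference genes and 12 after a repeated quantile normalization. Scaling by Actb or by the reference genes adds the same value, 0.56 or 0.38, to every difference. The lowess trend subtracts a value set by the level of the gene. Why the arrays differ in these respects was not tested. No paired analysis was possible because each genotype has 1 array and the labels give no shared replicate numbers. For the same reason no replicate could be left out.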

Other observations

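Of 958 probe sets without a gene symbol, 53 were higher and 67 lower in cFLIP KO by 2-fold or more, relative to the double knockout. Of the genes with a symbol 3.32% were higher and 8.07% lower. The complement genes C4a and C4b, near-identical neighbours on chromosome 17, differed in opposite directions, with log2 values of 4.67 in cFLIP KO, 3.44 in cFLIP KO/TNF KO and 3.44 in TNF KO for C4a and 4.20, 5.95 and 5.95 for C4b. Hspa1a and Hspa1b, the stress-inducible heat shock genes of the same region, differed by -1.74 and -1.59 as deposited, and by -1.07 and -0.90 after the lowess trend. Of 55 Serpin genes, 12 (21.8%) were at least 2-fold lower and 2 (3.64%) higher as deposited, and 7 and 0 after the lowess trend. Rpl7 was the 1 of 17 ribosomal protein genes that was at least 2-fold higher as deposited, with 7.0, 5.04 and 4.58, and under the other scalings 4 or 5 were higher. These genes and families were picked after their values were seen.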
